A study of Mus musculus with 2 samples.

Results

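Neutrophils that carried messenger RNA of the chemokine genes Ccl3 and Ccl4 were examined in 2 single-cell libraries of mouse tumours. A kept cell was counted as a mature neutrophil when it had at least 3 of the 7 genes Csf3r, Cxcr2, G0s2, Hdc, Stfa2l1, Retnlg and Clec4d, fewer than 3 UMIs of the 3 C1q genes, no UMI of Cd3d, Cd3e or Cd3g, fewer than 10 UMIs of Camp, Ngp and Ltf, and fewer than 4 UMIs of Rsad2, Ifit1 and Ifit3. A UMI (unique molecular identifier) is a tag that counts 1 captured RNA molecule. A mature neutrophil with at least 3 UMIs of Ccl3 and Ccl4 together was called a Ccl3/Ccl4 neutrophil. The rule found 941 of them among 19476 kept cells, 452 in the cepharanthine library (CEP) and 489 in the vehicle library (Vehicle). The other 1108 CEP and 1422 Vehicle mature neutrophils, with fewer than 3 such UMIs, served as the cells to compare with and are called low cells.

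Cepharanthine is a plant alkaloid of the bisbenzylisoquinoline class, which the series title sets against protein kinase C zeta, NF-kB and PARP1. Tumours of treated and control mice were digested and CD45-positive cells, that is leukocytes, were enriched with magnetic beads before droplet sequencing. The sources used here do not give the strain, tumour model, dose, schedule or age. The title of the control reads "Vehide". The design text names 5 biological replicates in each group, but cells cannot be assigned to animals, so each group was 1 sample, no test between groups was possible, and every interval here covers counting error only.

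Neutrophils are short-lived granulocytes that leave the bone marrow with ready-made granules, circulate, and enter inflamed tissue and tumours, where their transcripts differ from those in blood. CCL3 and CCL4, also called macrophage inflammatory proteins 1 alpha and 1 beta, are secreted CC chemokines that act through receptors of the CC family, among them CCR1 for CCL3, and draw in monocytes, T cells and other leukocytes. Their genes are neighbours and respond to signals that activate NF-kB. Neutrophils of mouse tumours that express Ccl3, Ccl4, Cxcl3 and Hcar2 have been described as a tumour-associated state.

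Ccl3 lies at chr11:83647844-83649355 on the minus strand and Ccl4 at chr11:83662584-83664683 on the plus strand of mm10. Cxcl2, at chr5:90903871-90905938, and Cxcl3, at chr5:90786103-90789600, encode CXC chemokines that attract neutrophils through CXCR2. The 250 bases before the start site of a selecting gene, Ccl3, and of Cxcl2 and Cxcl3, the chemokine genes outside the rule with the highest levels in these cells, are printed because the genes move together across the cells described here. They come from a set of RefSeq promoter windows (GRCm38.p6), and the set used here held none for Ccl4 or Hcar2. The printed bases span chr11:83649379-83649628 on the minus strand for Ccl3, chr5:90903649-90903898 on the plus strand for Cxcl2 and chr5:90785851-90786100 on the plus strand for Cxcl3. Capitals mark a match to the kB consensus, the sequence bound by NF-kB, found on either strand.
Ccl3: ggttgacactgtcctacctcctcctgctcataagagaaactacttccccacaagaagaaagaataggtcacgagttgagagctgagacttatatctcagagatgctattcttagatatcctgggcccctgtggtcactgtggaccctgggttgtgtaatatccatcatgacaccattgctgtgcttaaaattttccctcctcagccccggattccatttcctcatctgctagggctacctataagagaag
Cxcl2: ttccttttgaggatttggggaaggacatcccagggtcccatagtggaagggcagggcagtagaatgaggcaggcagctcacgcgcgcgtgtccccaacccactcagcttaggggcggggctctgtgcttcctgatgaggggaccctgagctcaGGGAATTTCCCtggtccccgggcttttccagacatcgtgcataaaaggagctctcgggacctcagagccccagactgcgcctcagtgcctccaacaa
Cxcl3: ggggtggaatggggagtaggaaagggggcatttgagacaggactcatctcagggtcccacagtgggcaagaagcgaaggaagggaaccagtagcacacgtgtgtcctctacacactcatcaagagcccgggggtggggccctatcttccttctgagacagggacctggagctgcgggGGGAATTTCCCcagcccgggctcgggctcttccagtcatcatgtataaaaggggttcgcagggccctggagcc
The Cxcl2 and Cxcl3 windows hold the same run of 11 bases, in which 2 overlapping matches lie, and the Ccl3 window holds no match. Of 32851 promoter windows of 300 bases (250 before and 50 after the start), 8.46% held the consensus, so a match describes the letters and says nothing of binding.

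The deposited matrices held 9621 CEP and 9989 Vehicle barcodes with 88721774 and 81208647 UMIs, and 9544 and 9932 barcodes were kept. The Ccl3/Ccl4 neutrophils were shallow, with a median of 1707.5 UMIs and 673 genes per cell in CEP and 1699 UMIs and 693 genes in Vehicle, against 6701 and 6305 UMIs over all kept cells. The low cells had medians of 1600.5 and 1649 UMIs. Between the libraries 136 barcodes were shared, of which 9 CEP and 4 Vehicle barcodes were Ccl3/Ccl4 neutrophils. The highest 8% of doublet scores took in 18 CEP and 13 Vehicle Ccl3/Ccl4 neutrophils.

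The 5 genes given as markers of these cells, Ccl3, Ccl4, Hcar2, Cxcl3 and Csf3r, were all detected in both libraries, and all 12 genes of a neutrophil marker list were present, summing to 102539 UMIs per 1000000 (CPM) in CEP and 103119 CPM in Vehicle. T cell (5 genes), B cell (4) and erythroid (4) markers were all at 0, which allows up to 2.68 CPM in CEP and 2.71 CPM in Vehicle. The rule itself removes cells with Cd3 UMIs. Markers of mast cells and basophils were at 0 apart from Kit, with 12 and 11 UMIs, and eosinophil markers were at 0 for 7 of 7 genes in CEP and 5 of 7 in Vehicle. All 10 macrophage markers were detected, summing to 1283 CPM in CEP and 1060 CPM in Vehicle, close to the 1106 and 1012 CPM of the low cells. In each library 74 Ccl3/Ccl4 neutrophils carried at least 3 of these 10 genes, and they held 68.0% of the list's UMIs in CEP and 54.7% in Vehicle. Epithelial markers summed to 403 CPM in CEP and 2.71 CPM in Vehicle, and 5 CEP cells with a median of 25488 UMIs held 94.2% of the CEP sum. The cells with epithelial genes were thus few and very deep, while those with macrophage genes had median depths of 2495.5 and 2559 UMIs. Monocyte markers summed to 909 CPM in CEP and 717 CPM in Vehicle, against 1027 and 745 CPM in low cells, with at least 3 of 5 genes in 10 and 9 cells. Cells with more than 3 times the median UMIs of their library's Ccl3/Ccl4 neutrophils numbered 30 in CEP and 23 in Vehicle and held 29.5% and 19.9% of all UMIs of the class. Values without such deep cells, an alternative chosen after the data were seen, are given beside the list medians and genes that rest on few cells, and the part of mixed cells in other values was not tested.

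The count of Ccl3 and Ccl4 UMIs that defined the cells had a long tail. Of the mature neutrophils 850 in CEP (54.5%) and 1100 in Vehicle (57.6%) had no UMI of either gene. Just outside the threshold, 95 CEP and 100 Vehicle cells had 2 UMIs, and just inside it, 55 and 83 cells had 3. The Ccl3/Ccl4 neutrophils had a median of 8 UMIs in both libraries, with quartiles of 5 and 17 in CEP and 4 and 16 in Vehicle, and the highest cells had 255 and 173. The 45 CEP and 49 Vehicle cells with most of these UMIs held 42.6% and 40.7% of the Ccl3 and Ccl4 UMIs of the class. The median cell spent 0.485% of its UMIs on the 2 genes in CEP and 0.453% in Vehicle, and the highest cells spent 9.61% and 9.30%.

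**Figure D1:**
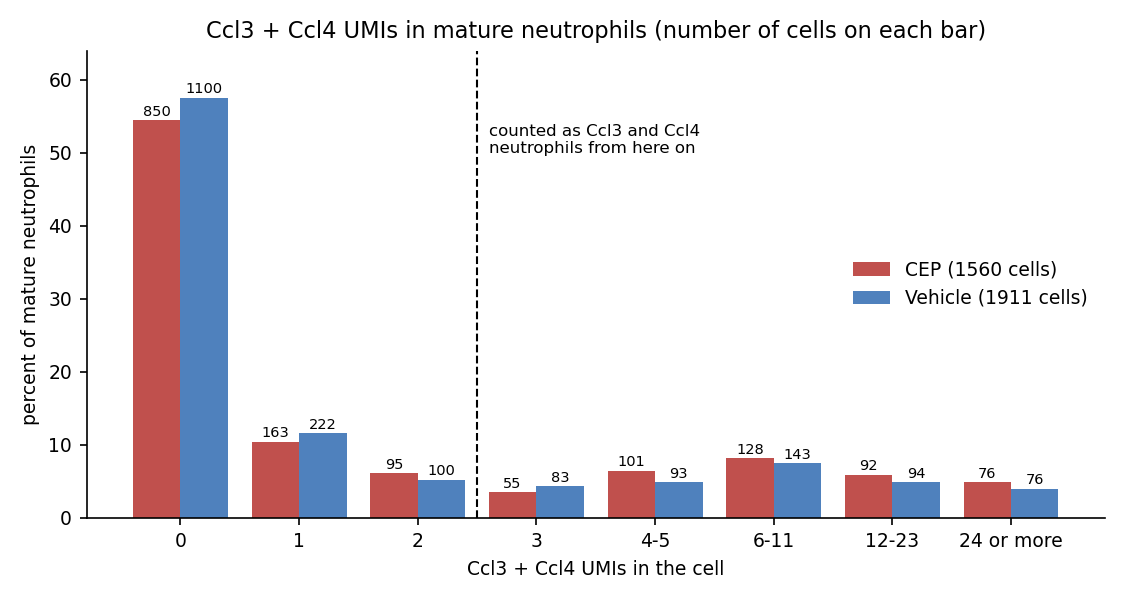
Percent of mature neutrophils (y axis) by their number of Ccl3 plus Ccl4 UMIs (x axis) in the CEP (red, 1560 cells) and Vehicle (blue, 1911 cells) libraries, with the number of cells on each bar and a dashed line at the selection threshold. Most cells had none, and 76 cells in each library had 24 or more.

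Both genes were found in 229 CEP cells (50.7%) and 235 Vehicle cells (48.1%). Ccl3 alone was seen in 119 (26.3%) and 162 (33.1%), and Ccl4 alone in 104 and 92 cells. Ccl3 stood at 2465 CPM in CEP and 2872 CPM in Vehicle, and Ccl4 at 3857 and 3365 CPM. Ccl3 thus made up 39.0% of the pair's UMIs in CEP and 46.1% in Vehicle. These levels follow from the selection and are given as a description.

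The Ccl3/Ccl4 neutrophils took similar shares of both libraries. They were 4.74% of kept CEP cells (exact 95% binomial interval 4.32% to 5.18%) and 4.92% of kept Vehicle cells (4.51% to 5.37%), a ratio of 0.962 with an interval of 0.849 to 1.09. Among mature neutrophils alone their share was 29.0% in CEP (26.7% to 31.3%) and 25.6% in Vehicle (23.6% to 27.6%), a ratio of 1.13 with an interval of 1.02 to 1.26. Mature neutrophils as a whole were 16.3% of kept CEP cells and 19.2% of kept Vehicle cells, and the low cells were fewer in CEP by a ratio of 0.811. Epithelial cells, described below, were 8.07% of kept CEP cells and 1.26% of kept Vehicle cells. Shares of kept cells depend on them too, and shares without them were not computed. The share among mature neutrophils stayed above that in Vehicle under all 9 other settings run for it, at a log2 ratio of 0.16 to 0.22, and its interval took in 0 (-0.00 to 0.35) when 4 of the 7 neutrophil genes were required. Whether this spread lies within that between animals cannot be told from 1 library a group.

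Ccl3 and Ccl4 were not limited to neutrophils. C1q macrophages were cells with C1q UMIs well above the neutrophil rule's limit of fewer than 3. They also had fewer than 3 of the 7 neutrophil genes and no Cd3 UMI. These macrophages held 51.3% of all Ccl3 and Ccl4 UMIs of the kept CEP cells and 59.1% of those in Vehicle. The Ccl3/Ccl4 neutrophils held 14.1% and 12.9%. Per UMI sequenced, Ccl3 stood at 107 CPM in CEP macrophages and 98.1 CPM in Vehicle macrophages, and Ccl4 at 475 and 489 CPM. These levels were under those of the selected neutrophils. That order follows from the selection, because the neutrophils were chosen by these UMIs and the macrophages were not. At least 3 Ccl3 and Ccl4 UMIs were found in 34.6% of CEP and 33.2% of Vehicle C1q macrophages, whose median depths were 9810 and 11010 UMIs. Epithelial cells were picked by UMIs of Epcam, Krt8 and Krt18. They had no UMI of Ptprc, the CD45 gene, fewer than 3 C1q UMIs and fewer than 3 of the 7 neutrophil genes. Among them, 0.779% of 770 CEP cells (0.286% to 1.69%) and 0.8% of 125 Vehicle cells reached 3 UMIs of Ccl3 and Ccl4. Their median depths were 26340.5 and 26493 UMIs. The share of selected cells among mature neutrophils was 29.0% in CEP and 25.6% in Vehicle. It was above these epithelial shares and below the shares of the deeper C1q macrophages. The same threshold selected the neutrophils, and the epithelial cells were picked without Ptprc. The shares are thus a description and do not measure background in neutrophils. Neutrophils with an interferon signature, held apart by the rule, reached 3 UMIs in 42.9% of 119 CEP and 41.6% of 214 Vehicle cells.

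Several genes outside the rule differed between the Ccl3/Ccl4 neutrophils and the low cells by at least 1.5-fold in the same direction in both libraries. Higher in both were neutrophil-attracting and other chemokines (Cxcl2, Cxcl3, Ccl6), the niacin and ketone body receptor gene Hcar2, the hypoxia gene Hilpda, Cd274, which encodes PD-L1, and Il1rn, which encodes the interleukin 1 receptor antagonist. Lower in both were genes of circulating mature neutrophils, among them Lrg1, Hp and Pglyrp1. Of 3353 genes with enough UMIs to compare (at least 100 in the selected and low cells of each library together), 55 (1.64%) were at least 1.5-fold higher in both libraries and 88 (2.62%) at least 1.5-fold lower. The median log2 ratio over all these genes was -0.09 in both libraries. The cells were split by their own Ccl3 and Ccl4 counts and each ratio compares sums over cells of 1 library, so the calls rest on fold alone. Hcar2 and Cxcl3 were given beforehand as markers of these cells, and their differences are a description.

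Cxcl2 was the most abundant of the chemokine genes, at 17379 CPM in CEP Ccl3/Ccl4 neutrophils and 17305 CPM in Vehicle, against 8439 and 8951 CPM in the low cells. The log2 ratios were 1.04 (1.01 to 1.07) in CEP and 0.95 (0.92 to 0.98) in Vehicle. Most low cells also had Cxcl2, which was detected in 87.4% of them in both libraries, against 96.9% and 96.5% of the selected cells. Cxcl3 stood at 4950 CPM in CEP and 4862 CPM in Vehicle, against 1560 and 1662 CPM in the low cells, with log2 ratios of 1.67 (1.61 to 1.72) and 1.55 (1.49 to 1.60). With each cell thinned to 1000 UMIs, Cxcl3 was detected in 49.1% of 399 selected and 28.4% of 899 low CEP cells, and in 43.5% of 448 and 25.0% of 1238 Vehicle cells. Cxcl3 thus differed in how many cells held it as well as in its level. Ccl6, a CC chemokine of myeloid cells, was at 1884 CPM in CEP and 1744 CPM in Vehicle, against 919 and 945 CPM, with log2 ratios of 1.04 (0.95 to 1.12) and 0.88 (0.80 to 0.97).

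Over the CC chemokine and receptor list, 7 of the 9 genes compared were above 1 in both libraries and none below 1 in both, where 25.9% of all genes were above and 46.4% below. The list medians were 0.54 in CEP and 0.88 in Vehicle, and 0.31 and 0.28 without the deep cells. Several of these genes rested on single cells. In Vehicle 1 cell held 83.7% of the Ccl7 UMIs and 47.0% of those of Ccl2, and Ccl24, the gene with the largest mean ratio, was found in 22 CEP and 18 Vehicle cells with 52.4% and 51.9% of its UMIs in 1 cell and a Vehicle log2 ratio that went from 1.38 to -0.02 without the deep cells. Ccl9, a chemokine of myeloid cells, was at 90.2 CPM in CEP and 107 CPM in Vehicle against 56.4 and 23.2 CPM in low cells and was spread over 33 and 32 cells. Without the deep cells its log2 ratio in CEP went from 0.68 to 1.45, and that of Ccl2 from 0.54 to 1.29. Ccr1, the receptor for CCL3, was similar in selected and low cells, at 625 against 576 CPM in CEP and 654 against 577 CPM in Vehicle. Cxcr2, which belongs to the selecting panel, was at 368 against 557 CPM in CEP and 386 against 648 CPM in Vehicle.

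**Figure D2:**
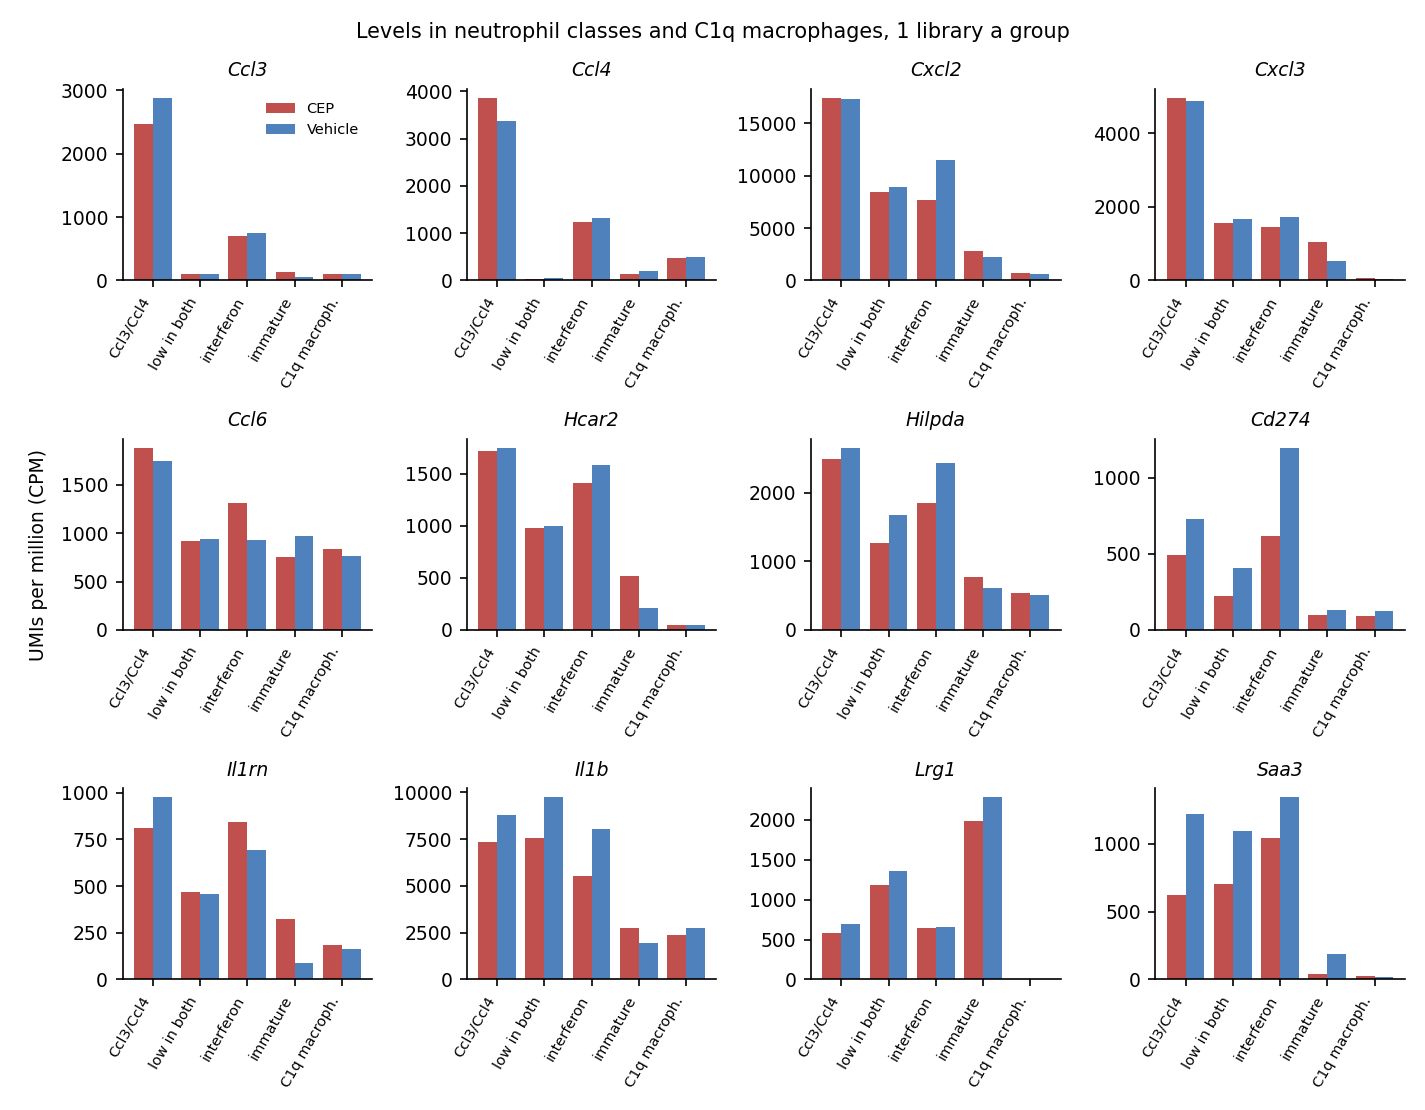
Level of 12 genes in CPM (y axes, linear from 0) in Ccl3/Ccl4 neutrophils, low cells, interferon neutrophils, immature neutrophils and C1q macrophages (x axis) of the CEP (red) and Vehicle (blue) libraries, each bar 1 sum over cells and Ccl3 and Ccl4 shown as the selecting genes. Cxcl2 and Cxcl3 are highest in the Ccl3/Ccl4 neutrophils of both libraries, and Lrg1 is highest in immature neutrophils.

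Among the named markers, Hcar2 was at 1719 CPM in CEP and 1749 CPM in Vehicle, against 977 and 993 CPM in low cells, a log2 ratio of 0.82 in each (0.73 to 0.90 in both). After thinning it was detected in 71.9% against 50.1% of CEP cells and 69.0% against 47.3% of Vehicle cells, and without thinning in 81.9% against 63.6% and 80.0% against 59.1%. C1q macrophages had 49.2 and 46.7 CPM of it, so among these classes it was a neutrophil gene, present in low cells too. Cd274 was at 491 CPM in CEP and 726 CPM in Vehicle, against 221 and 407 CPM, with log2 ratios of 1.15 (0.98 to 1.32) and 0.83 (0.70 to 0.96). The interferon neutrophils, outside the rule, had more of it, at 619 and 1196 CPM. Siglecf, a marker reported for some tumour neutrophils, was rare, at 13.4 CPM in CEP and 23.5 CPM in Vehicle selected cells and 26.6 and 35.2 CPM in low cells.

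Over a list of 21 tumour neutrophil genes, chosen with earlier results of these libraries known, 17 were above 1 in both libraries and 2 below 1 in both, and 6 were at least 1.5-fold higher in both. Among all genes compared, 25.9% were above 1 in both, 46.4% below and 1.64% at least 1.5-fold higher. The list medians were 0.47 in CEP and 0.55 in Vehicle, and 0.65 and 0.62 without the deep cells. Hmox1, the haem-degrading enzyme, was at 782 CPM in CEP and 823 CPM in Vehicle against 425 and 495 CPM in low cells, with log2 ratios of 0.88 and 0.73. Fth1, a ferritin subunit that stores iron, was the most abundant gene named here, at 48181 CPM in CEP and 55207 CPM in Vehicle against 33543 and 37046 CPM. F3, which encodes tissue factor, the trigger of clotting, stood at 99.2 CPM in CEP and 129 CPM in Vehicle against 44.7 and 67.0 CPM.

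Interleukin 1 genes did not move as 1 group. Il1b was abundant in all mature neutrophils and slightly lower in the selected cells, at 7324 CPM in CEP and 8764 CPM in Vehicle against 7569 and 9745 CPM. Il1a was at 214 CPM in CEP and 218 CPM in Vehicle against 92.9 and 148 CPM, with log2 ratios of 1.21 (0.94 to 1.47) and 0.56 (0.32 to 0.79). Il1rn, which blocks the receptor of both, was at 811 CPM in CEP and 976 CPM in Vehicle against 467 and 459 CPM, with log2 ratios of 0.80 (0.67 to 0.92) and 1.09 (0.97 to 1.20). Of the 14 inflammatory cytokine and interleukin 1 genes compared, 9 were above 1 in both libraries and 3 below, and 1 passed 1.5-fold. The shares over all genes were 25.9%, 46.4% and 1.64%. Tnf was low in both kinds of cell, at 75.0 CPM in CEP and 69.6 CPM in Vehicle against 55.3 and 62.2 CPM.

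NF-kB target genes had positive medians without passing the fold. Of 17 compared, 11 were above 1 in both libraries and 4 below, none passed 1.5-fold in both, and the medians were 0.31 in CEP and 0.36 in Vehicle. Among all genes, 25.9% were above 1 in both libraries and 46.4% below. Nfkbia, the inhibitor that NF-kB induces to limit itself, was at 2099 CPM in CEP and 2435 CPM in Vehicle against 1706 and 1857 CPM. Ptgs2, which encodes cyclooxygenase 2, was at 493 and 464 CPM against 305 and 352 CPM. Plaur, the urokinase receptor, was at 2999 and 2950 CPM against 2176 and 2297 CPM. The 12 NF-kB subunits and inhibitors did not move one way, with 4 above and 5 below 1 in both libraries and medians of -0.16 and 0.05. Among them Bcl3, an atypical inhibitor family member, was lower, at 67.9 CPM in CEP and 70.5 CPM in Vehicle against 115 and 118 CPM. Traf6, an adaptor ubiquitin ligase upstream of NF-kB that is not in that list, was named by its fold, at 65.2 CPM in CEP and 75.9 CPM in Vehicle against 32.9 and 33.2 CPM.

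Glycolysis and hypoxia genes had ratios above 1 almost throughout. Of 27 compared, 25 were above 1 in both libraries and 2 below, 5 passed 1.5-fold in both, and the medians were 0.33 in CEP and 0.34 in Vehicle. Among all genes the shares were 25.9% above, 46.4% below and 1.64% at least 1.5-fold higher. Hilpda, which blocks lipid droplet breakdown under hypoxia, stood at 2498 CPM in CEP and 2660 CPM in Vehicle against 1275 and 1681 CPM, with log2 ratios of 0.97 (0.90 to 1.04) and 0.66 (0.60 to 0.73). Hk2, the first enzyme of glycolysis, was at 138 CPM in CEP and 185 CPM in Vehicle against 82.3 and 106 CPM. Ldha, which makes lactate, was at 2545 and 2980 CPM against 1875 and 2109 CPM. Ero1l, an oxidase of the endoplasmic reticulum induced by hypoxia, was at 881 and 1170 CPM against 549 and 713 CPM. Pfkp and Pfkfb3, which act at the phosphofructokinase step, had log2 ratios of 0.60 and 0.57 in CEP and 0.70 and 0.74 in Vehicle. The 2 genes on the other side were transporters, the glucose carrier Slc2a3 at -0.21 and -0.28 and the lactate exporter Slc16a3 at -0.24 and -0.44.

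Growth factor and stress lists also had medians above 0, at 0.20 in CEP and 0.43 in Vehicle for the former. Vegfa, which drives vessel growth, was at 238 CPM in CEP and 304 CPM in Vehicle against 172 and 182 CPM, and 9 of the 16 growth factor and matrix protease genes were above 1 in both libraries and 4 below. Of 12 genes of the integrated stress and unfolded protein response, 9 were above 1 in both and 1 below, with medians of 0.26 and 0.39. For both lists the shares over all genes were 25.9% above 1 in both libraries and 46.4% below. Xbp1, a transcription factor of the unfolded protein response, was at 743 CPM in CEP and 874 CPM in Vehicle against 490 and 603 CPM. Arg1, which breaks down arginine, had the ratios 1.40 and 1.23 but was found in 61 CEP and 50 Vehicle cells, with 20.5% and 33.5% of its UMIs in 1 cell. After thinning it was detected in 8.52% of selected and 7.79% of low CEP cells, and in 5.36% and 5.65% of Vehicle cells. The thinned Vehicle ratio was 0.49.

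Genes of circulating mature neutrophils mostly had ratios below 1. Of 24 compared, 18 were below 1 in both libraries and 2 above, where 46.4% of all genes were below and 25.9% above, and 7 were at least 1.5-fold lower in both, against 2.62% of all genes. The medians were -0.38 in CEP and -0.46 in Vehicle, or -0.55 and -0.51 without the deep cells. Lrg1, a secreted glycoprotein of neutrophil granules, was at 579 CPM in CEP and 697 CPM in Vehicle against 1187 and 1355 CPM, with log2 ratios of -1.03 (-1.16 to -0.91) and -0.96 (-1.07 to -0.85). Hp, haptoglobin, was at 601 and 781 CPM against 1179 and 1407 CPM, and Pglyrp1, which binds bacterial peptidoglycan, at 691 and 667 CPM against 1039 and 1173 CPM. Itgal, the integrin subunit of LFA-1, was at 48.2 and 65.9 CPM against 92.5 and 109 CPM, and Selplg, the P-selectin ligand, at 378 and 403 CPM against 582 and 635 CPM. Ly6g, the antigen used to stain mouse neutrophils, was at 84.0 CPM in CEP and 82.2 CPM in Vehicle against 90.5 and 151 CPM, and without the deep cells its log2 ratios were -1.20 and -1.29. The alarmin S100a8 was at 28811 CPM in CEP and 28353 CPM in Vehicle against 28607 and 32477 CPM. Csf3r, a gene of the selecting panel that encodes the G-CSF receptor, was at 591 CPM in CEP and 650 CPM in Vehicle against 843 and 957 CPM.

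Interferon genes did not separate the selected from the low cells in 1 direction. Of 14 interferon gamma induced genes, 3 were above 1 in both libraries and 7 below, with medians of 0.02 in CEP and -0.21 in Vehicle, and of 19 type I genes outside the rule 2 were above and 10 below. These shares below 1 lie near the 46.4% of all genes. Irf1, a transcription factor downstream of interferon gamma, was lower, at 261 CPM in CEP and 393 CPM in Vehicle against 396 and 622 CPM. Of 24 genes that tissue digestion and heat shock induce, 9 were above 1 in both libraries and 8 below, with medians of -0.09 in CEP and 0.10 in Vehicle. Over all genes 25.9% were above 1 in both libraries and 46.4% below, with a median of -0.09 in each. Without the deep cells the list medians were 0.04 and 0.10, and those of all genes -0.11 and -0.12. The part of digestion in the other differences was not tested.

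**Figure D3:**
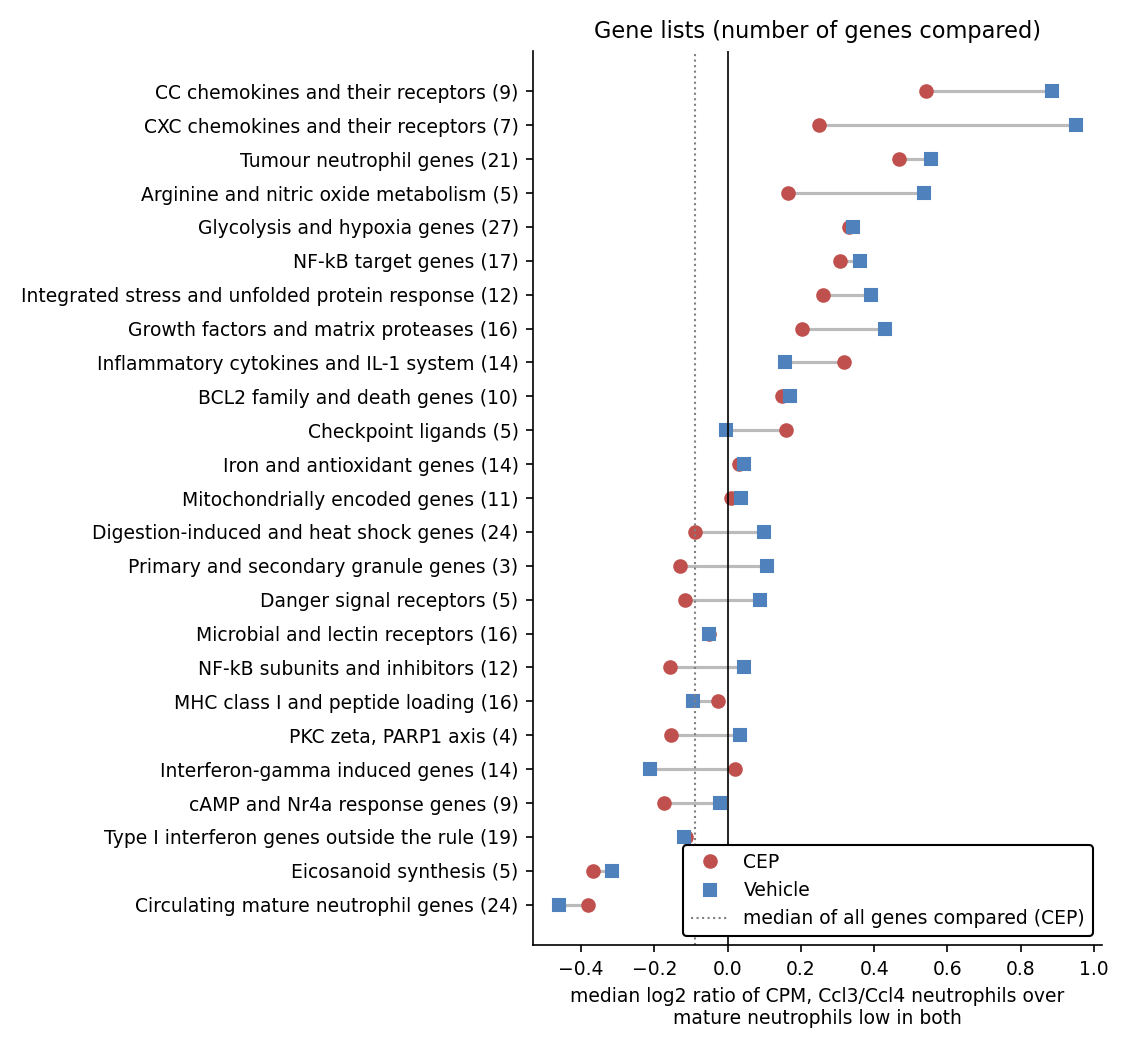
Median log2 ratio of CPM in Ccl3/Ccl4 neutrophils over low cells (x axis) for each gene list (y axis, number of genes compared in parentheses) in the CEP (red circles) and Vehicle (blue squares) libraries, with a dotted line at the CEP median of all genes. Chemokine, tumour neutrophil and glycolysis lists lie above 0 in both libraries, and circulating neutrophil genes lie lowest.

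Fold alone also named genes with few UMIs. Besides those above, the 12 genes with the largest mean ratio included Inhba, Nr4a2, Pf4 and Id2. Id2, an inhibitor of basic helix-loop-helix factors, was at 172 CPM in CEP and 160 CPM in Vehicle against 92.9 and 70.8 CPM and was spread over 87 and 95 cells. Pf4, a platelet and macrophage chemokine, had 40.9% of its CEP and 67.9% of its Vehicle UMIs in 1 cell, and its Vehicle log2 ratio went from 0.93 to 0.26 without the deep cells. Nr4a2, an orphan nuclear receptor, went from 0.91 to -0.91 in Vehicle without them. At the lower end, Stk10, a protein kinase, was at 28.6 CPM in CEP and 28.0 CPM in Vehicle against 56.8 and 63.6 CPM, and Rasgrp2, an activator of Rap1, at 25.0 and 19.9 CPM against 44.3 and 49.9 CPM. Krt18 and Igfbp4, also named there, are genes of epithelial and stromal cells, and Krt18 had 1 UMI in the Vehicle cells. Without the deep cells Krt18 was at 0.20 in CEP and 0.28 in Vehicle, and Igfbp4 at -0.35 and 0.25. A further count took 2082 genes found in at least 10% of the cells and left out the deep cells. In it 69 genes (3.31%) were higher and 107 (5.14%) lower by 1.5-fold in both libraries. Among the 25 highest were Cxcl3, Spp1, Arg1, Traf6, F3, Cxcl2, Cd274, Id2, Il1rn, Il1a, Hk2, Hcar2 and Hilpda. Over all Vehicle selected cells, deep ones included, 1 cell held 40.5% of the Spp1 UMIs and 1 cell 33.5% of those of Arg1.

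The differences did not appear only at the threshold. Mature neutrophils with at least 1000 UMIs were thinned to 1000 and placed in 5 bins by their Ccl3 and Ccl4 UMIs, from none to 12 or more. Cxcl2 went from 10.1 UMIs per 1000 in CEP cells without either gene to 30.4 in cells with 12 or more, and from 9.28 to 30.1 in Vehicle. Cxcl3 went from 1.86 to 6.98 in CEP and from 1.53 to 10.4 in Vehicle, with its largest step between 3 to 5 and 6 to 11 UMIs in CEP (2.98 to 6.15) and between 6 to 11 and 12 or more in Vehicle (4.29 to 10.4). Ccl6 went from 0.912 to 2.38 in CEP and from 0.810 to 2.42 in Vehicle. For Cxcl2 and Hcar2 each bin was above the one before it in both libraries, and Hcar2 reached 2.72 UMIs per 1000 in CEP and 2.28 in Vehicle.

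Cells below the threshold were already graded. Those with 1 or 2 Ccl3 and Ccl4 UMIs, counted as low cells, had 1.68 Hcar2 UMIs per 1000 in CEP (interval 1.51 to 1.87) and 1.67 in Vehicle, against 1.12 and 0.980 in cells with none. Lrg1 in the same cells was at 0.859 in CEP and 0.982 in Vehicle against 1.61 and 1.48 in cells with none, and it reached 0.497 and 0.403 in cells with 12 or more. Hp went from 1.55 to 0.550 in CEP and from 1.60 to 0.478 in Vehicle, and Pglyrp1 from 1.23 to 0.497 and from 1.13 to 0.390. Il1rn in CEP levelled off after 1.08 at 3 to 5 UMIs, while in Vehicle it reached 1.48. Il1b had no such course, with 9.49 and 9.37 in CEP and 11.2 and 9.95 in Vehicle at the 2 ends. The summed glycolysis and hypoxia list went from 19.5 to 26.2 in CEP and from 19.9 to 28.0 in Vehicle, and the circulating neutrophil list from 138 to 112 and from 123 to 99.5. The bins come from the same cells and counts, so the courses are a description.

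**Figure D4:**
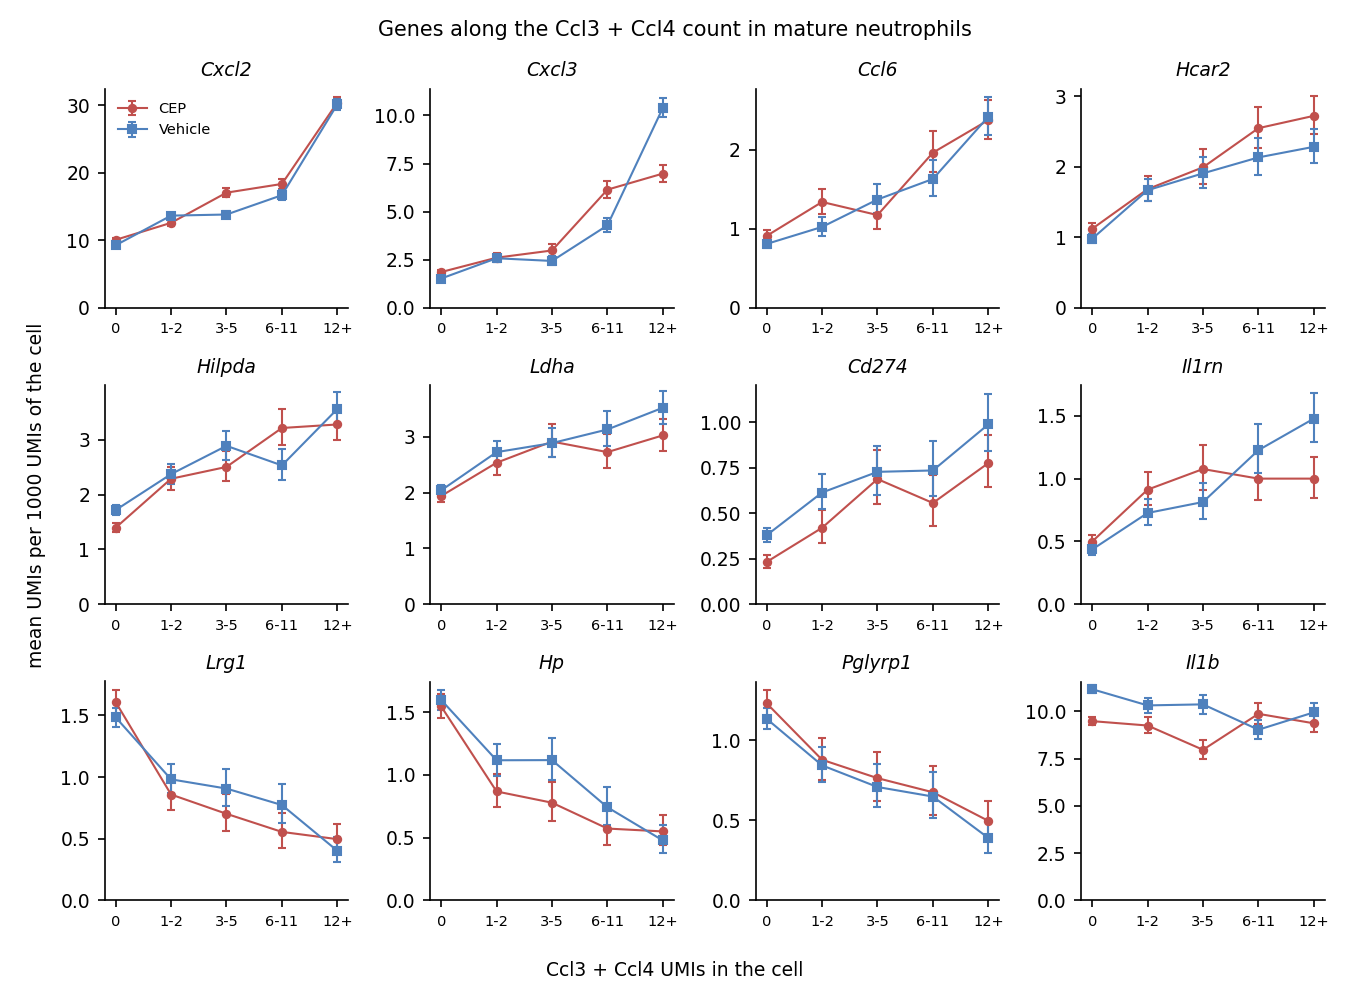
Mean UMIs per 1000 UMIs (y axes, linear from 0) of 12 genes in mature neutrophils thinned to 1000 UMIs, by the Ccl3 plus Ccl4 UMIs of the cell (x axes), in the CEP (red) and Vehicle (blue) libraries, with bars for the exact 95% Poisson interval of each sum. Cxcl2 climbs and Lrg1 and Pglyrp1 descend across the bins of both libraries, while Il1b shows no course. Cxcl3 is higher and Hp lower in the last bin than in the first. Between 1 to 2 and 3 to 5 UMIs, Vehicle Cxcl3 goes from 2.58 to 2.44 and Vehicle Hp stays at 1.12.

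Between the 2 groups, some genes that mark the cells were alike and others were not. In CEP over Vehicle Ccl3/Ccl4 neutrophils the log2 ratio was 0.01 for Cxcl2, 0.03 for Cxcl3 (-0.03 to 0.08) and -0.02 for Hcar2 (-0.12 to 0.07). Lower in CEP were Cd274, at 491 CPM against 726 CPM in Vehicle, Il1rn (811 and 976 CPM) and the selecting gene Ccl3 (2465 and 2872 CPM). Ccl4, the other selecting gene, was higher in CEP, at 3857 and 3365 CPM. Lower in CEP by at least 1.5-fold were 4 of 14 interferon gamma induced genes and the acute phase gene Saa3, and all 11 mitochondrially encoded genes compared had ratios above 1. Of 2385 genes with at least 100 UMIs over both libraries, 186 (7.8%) were at least 1.5-fold higher in CEP and 70 (2.94%) lower, and 44.2% had a ratio above 1. Without the deep cells the counts were 38 higher (2.09%) and 43 lower (2.36%) of 1820 genes. With 1 library a group, cepharanthine and any difference between the libraries cannot be told apart.

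Of the 14 interferon gamma induced genes compared, 12 were lower in CEP and 2 higher, 4 were at least 1.5-fold lower, and the median was -0.34. Among all genes compared, 44.2% had a ratio above 1 and 2.94% were at least 1.5-fold lower. Without the deep cells it was -0.32, and with every cell thinned to 1000 UMIs it was -0.05. Gbp2, a large GTPase that attacks vacuoles of microbes, was at 187 CPM in CEP and 330 CPM in Vehicle, a log2 ratio of -0.82 (-1.07 to -0.57). Irf1 was at 261 and 393 CPM (-0.59, -0.81 to -0.37). Ifi47, an immunity-related GTPase named among the genes found in many cells, was at 84.9 and 140 CPM. The same list was lower in the low cells, with a median of -0.53, so the difference was not seen in the selected cells alone. Of 15 type I interferon genes outside the rule, 11 were lower and 4 higher, with a median of -0.24, against -0.33 in low cells. The Rsad2, Ifit1 and Ifit3 limit of the rule removed cells high in those genes from both libraries.

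Cd274 was lower in CEP, at 491 CPM against 726 CPM, a log2 ratio of -0.56 (-0.72 to -0.41), or -0.32 without the deep cells, and the low cells had a ratio of -0.88. Parp14, an interferon-induced member of the PARP family, was at 74.2 and 133 CPM (-0.84, -1.25 to -0.44). Csf1, the macrophage growth factor, was at 537 and 779 CPM (-0.54). Saa3, an acute phase protein of inflamed tissue, was at 621 CPM in CEP and 1219 CPM in Vehicle, a log2 ratio of -0.97 (-1.11 to -0.84), or -0.89 without the deep cells. Its share of positive cells was 15.7% in CEP and 24.7% in Vehicle, and the low cells had a ratio of -0.64. The direction held in both neutrophil classes, and a difference between the classes could not be tested with 1 library a group.

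The mitochondrially encoded genes were higher in CEP for 11 of 11 compared, 9 of them by at least 1.5-fold, with a median of 0.85, or 0.80 without the deep cells. Among all genes compared, 44.2% were above 1 and 7.8% at least 1.5-fold higher. mt-Cytb, a subunit of respiratory complex III, was at 574 CPM in CEP and 249 CPM in Vehicle, a log2 ratio of 1.20. mt-Co1, of complex IV, differed least, at 1969 and 1508 CPM (0.39, 0.29 to 0.48). The low cells had the same direction with a median of 0.91. The median mitochondrial share of a selected cell was 0.324% in CEP and 0.218% in Vehicle. Mitochondrial RNA is also a measure of cell quality, and its part in other differences was not tested.

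Of the glycolysis and hypoxia genes, 22 of 27 were below 1 in CEP over Vehicle, with a median of -0.16 and none past 1.5-fold, but the median was -0.04 without the deep cells and -0.01 after thinning. Over all genes compared, 44.2% had a ratio above 1. NF-kB targets were divided, 7 above and 9 below 1, with a median of -0.04, equal to that of all genes. The 10 NF-kB subunits and inhibitors compared had a median of -0.08. Of the axis in the series title, Parp1 had 12 UMIs in CEP and 11 in Vehicle and Prkcz had 1 and 0, too few to compare in these cells. Digestion and heat shock genes had a median of 0.18, which was -0.064 without the deep cells.

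Arg1 was at 553 CPM in CEP and 257 CPM in Vehicle, a log2 ratio of 1.11 (0.90 to 1.32). Without the deep cells the ratio was 1.99, the largest among genes found in at least 10% of cells under that setting. Arg1 was present in 61 CEP and 50 Vehicle cells, with 20.5% and 33.5% of its UMIs in 1 cell. C1q macrophages had more of it, at 781 CPM in CEP and 762 CPM in Vehicle. The 10 genes named by fold on the higher side were led by epithelial genes: Wfdc2 had 185 UMIs in 11 CEP cells and none in Vehicle, Krt8 had 132 UMIs in 9 cells and none, and Krt18 had 267 UMIs in 17 cells and 1 in Vehicle. Epithelial cells made up 770 of the kept CEP and 125 of the kept Vehicle cells. Lgals1, which encodes galectin 1, had 1431 UMIs in 93 CEP cells and 239 UMIs in 78 Vehicle cells, with 23.6% of the CEP UMIs in 1 cell, and its log2 ratio of 2.56 was 0.60 without the deep cells. On the lower side, Ctsk, an osteoclast protease, had all 176 of its Vehicle UMIs in 1 cell of 22627 UMIs, and 90.3% of the Vehicle Ccl5 UMIs lay in 1 cell. Saa3, Gbp2b, Herc6 and Tmem140 were spread over 30 or more cells in each library. Among 1927 genes found in at least 10% of cells, without the deep cells, 29 (1.5%) were higher and 34 (1.76%) lower by 1.5-fold, with Saa3, Parp14, Tmem140, Ifi47 and Gbp2 among the lowest.

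**Figure D5:**
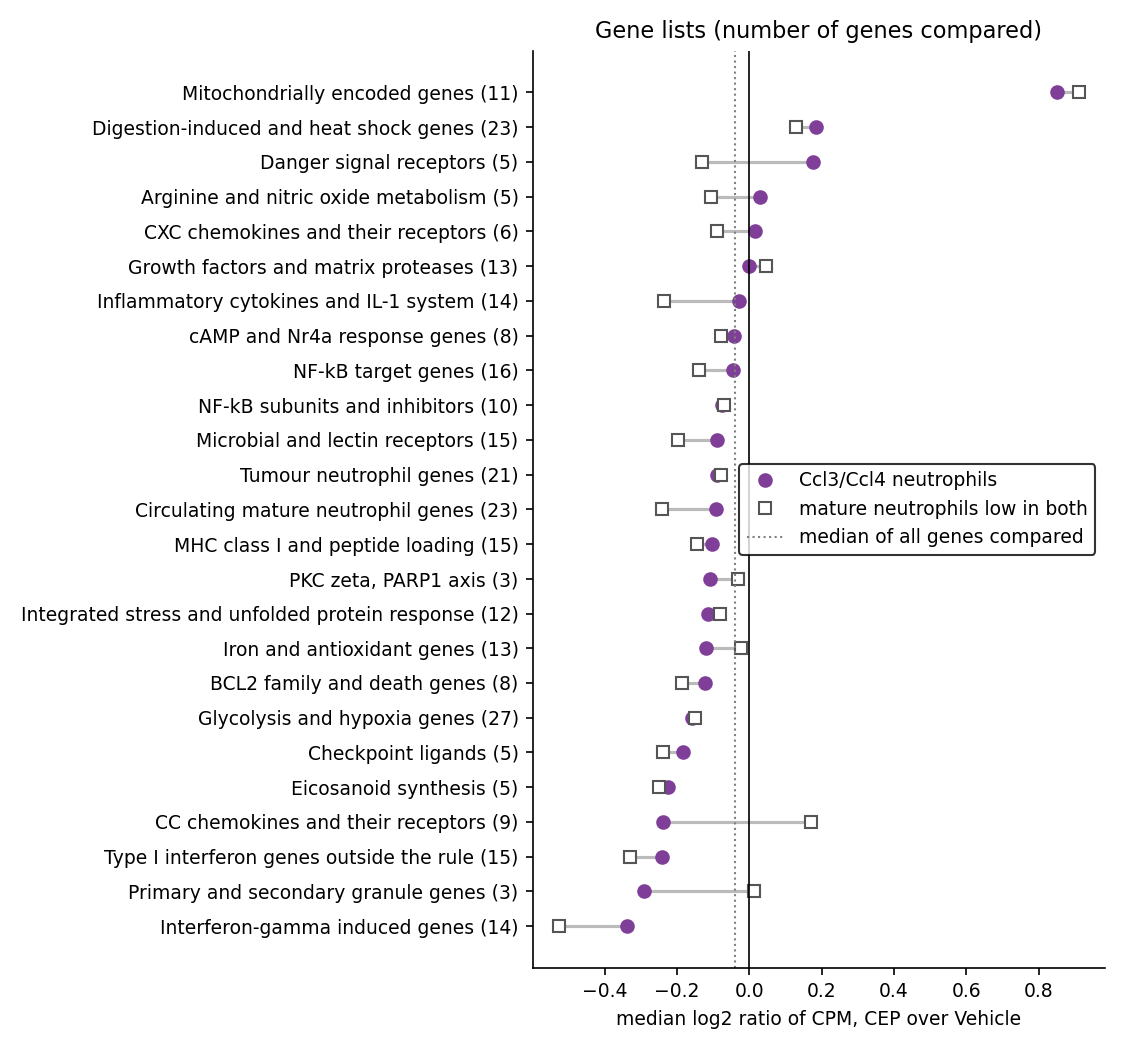
Median log2 ratio of CPM, CEP over Vehicle (x axis), for each gene list (y axis, number of genes compared in parentheses) in Ccl3/Ccl4 neutrophils (filled circles) and low cells (open squares), 1 library a group, with a dotted line at the median of all genes. Mitochondrially encoded genes lie highest and interferon gamma induced genes lowest in both kinds of cell.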

How the data were processed

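Per the file headers, the deposited values are counts: whole-number UMIs per gene and barcode from Cell Ranger 7.1.0 over 32285 gene models, with no normalization. The submitters' processing notes name Cell Ranger 5.0.1 and mm10, and no source used here says whether introns counted. No barcode had under 500 UMIs, so cells had been called before deposit. Groups came from the sample titles, 1 library each.

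A barcode was kept when it had 200 or more genes and no more than 15% mitochondrial UMIs, and was classed by the rule given above. UMIs were summed per class and library and scaled to 1000000 (CPM). Log2 ratios added 0.5 UMI to each sum and carry exact conditional binomial 95% intervals, and shares carry exact Clopper-Pearson intervals. UMIs from PCR copies are collapsed, but intervals and floors (3 counts) cover counting error only. A gene was called at 1.5-fold. Sums were 1119345 CEP and 1107068 Vehicle UMIs in the Ccl3/Ccl4 neutrophils and 2551620 and 2925652 in the low cells. Doublets were scored with Scrublet (scanpy 1.11.5). Its automatic threshold marked 1 cell in each library, so the highest 8% of scores were left out as an alternative only. Cells were thinned with seed 1. The ratio code was tested on simulated data. Python 3.11.15, numpy 2.4.6, scipy 1.17.1, pandas 2.3.3 and matplotlib 3.10.9 were used.

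The cells, the 25 gene lists and the tests were chosen with earlier results of these data known. Genes were named by the largest mean log2 ratio, 12 each way over low cells and 10 each way between groups, together with the listed genes and markers. The named alternatives were other Ccl3 and Ccl4 thresholds, another panel or mitochondrial limit, doublets left out, thinning, means of cells, no mitochondrial UMIs and other UMI minima. Leaving out cells with a C1q UMI, shared barcodes or deep cells was added after the data were seen. Results for a few genes are not reported here.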

Additional observations from a re-analysis of the deposited data

Results flagged for a closer look

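Some genes of the fixed lists had intervals on opposite sides of 0 in the 2 libraries, or in the 2 neutrophil classes. None of these differences was tested, since each library is 1 sample, and values without the deep cells follow each.

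In Ccl3/Ccl4 neutrophils over low cells, the log2 ratio of Cxcl1, a neutrophil-attracting chemokine, was -1.02 in CEP and 1.73 in Vehicle, and 2.39 and 1.82 without the deep cells. Spp1, which encodes osteopontin, was at -0.76 and 1.75, and at 1.47 and 0.92 without them. Thbs1, which encodes thrombospondin 1, was at -0.99 and 0.52, and at 1.54 and -1.62 without them. Opposite signs thus went with the deep cells for Cxcl1 and Spp1, both higher in the selected cells of each library without them. The ratios of the receptor genes were smaller: Cd14 was at 0.08 and -0.11 (0.04 and -0.05 without the deep cells), and Clec4e at 0.21 and -0.10 (0.19 and -0.01). Dusp1, a phosphatase induced by stress, was at -0.10 and 0.09 (-0.04 and 0.13), Isg20 at 0.31 and -0.23 (0.26 and -0.15), and the autophagy receptor gene Sqstm1 at -0.15 and 0.20 (0.10 and 0.25).

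In CEP over Vehicle, Ccl5 was at -2.15 in the Ccl3/Ccl4 neutrophils and 0.96 in the low cells, and at 0.82 and -1.15 without the deep cells, from 6 selected cells with the gene in each library. Ccl7 was at -0.56 and 1.49, and at 0.82 and 0.57 without them. Inhba, an activin subunit gene, was at -0.64 and 1.27 (-0.47 and 0.93 without them), and Thbs1 at -0.92 and 0.59 (2.31 and -0.85). The heat shock gene Hspa1a was at 0.58 and -0.41 (-0.18 and -1.20). Jun was at -0.30 and 0.17 (-0.34 and -0.24), Ctsb at -0.16 and 0.11 (-0.09 and 0.21), Lcn2 at 0.15 and -0.28 (0.33 and 0.01), and S100a8 at 0.02 and -0.18 (0.18 and 0.13).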

How the results depend on the processing

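No paired analysis was possible because each group is 1 library. Of 1028 recomputed list medians, shares and counts, 971 were counted as the same, 54 as moved and 3 as reversed, and the cause was not tested. Some medians counted as the same still changed sign. Over low cells in CEP, NF-kB subunits and inhibitors ranged from -0.25 to 0.01 and microbial and lectin receptors from -0.08 to 0.17. The interferon gamma median between groups, also counted as the same, went from -0.34 to -0.05 after thinning. Genes at least 1.5-fold higher in CEP numbered 186 (7.8% of the genes compared). They numbered 74 (4.27%) with 6 Ccl3 and Ccl4 UMIs required, 72 (3.41%) without likely doublets and 87 (3.65%) by means of cells. At minima of 50 and 300 UMIs they numbered 414 (10.7%) and 83 (8.72%). Without the deep cells they numbered 38 (2.09%), of which 18 were among the 186. Lower genes numbered 70 (2.94%), and 134 (5.62%) after thinning. They numbered 173 (4.47%) and 10 (1.05%) at those minima, and 43 (2.36%) without the deep cells. Each percent is of the genes compared in that setting. Over low cells, 55 (1.64%) were higher, and 28 (1.92%) at 300 UMIs. On the other side, 88 (2.62%) were lower, and 205 (6.11%) after thinning and 182 (5.43%) by means. At 50 and 300 UMIs 154 (3.08%) and 24 (1.64%) were lower, and 139 (5.38%) without the deep cells. Few UMIs per gene limit the last digits of sparse genes.

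Medians of CEP over Vehicle: CC chemokines 0.12 thinned, 0.12 by means, 0.11 without deep cells; tumour neutrophil genes -0.27 with 4 of 7 panel genes; circulating neutrophil genes 0.11 without deep cells; digestion genes 0.0011 with 4 of 7, reversed at -0.0082 by means, -0.0058 at 300 UMIs and -0.064 without deep cells; mitochondrial genes 1.17 without any C1q UMI. Medians over low cells in Vehicle: CC chemokines 1.34 with 4 of 7, 0.43 by means, 0.56 at 300 UMIs, 0.24 without C1q, 0.28 without deep cells; CXC chemokines 0.48 without doublets, 0.39 by means, 0.49 without deep cells; eicosanoid genes -0.10 at 300 UMIs; checkpoint ligands 0.33 at 50 UMIs; arginine genes 0.28 at 300 UMIs and 0.25 without deep cells; danger receptors -0.18 at 300 UMIs and -0.18 without C1q. In CEP: CXC chemokines 0.65 thinned, 1.09 without C1q, 0.80 without deep cells; tumour neutrophil genes 0.61 at 6 UMIs and 0.65 without deep cells; circulating genes -0.55 without deep cells; digestion genes 0.055 by means and 0.036 without deep cells; eicosanoid genes -0.55 thinned, -0.53 by means, -0.19 at 300 UMIs; arginine genes 0.35 at 2 UMIs, 0.59 thinned, 0.44 by means; danger receptors 0.24 thinned, 0.15 by means, 0.22 at 50 UMIs. Among single genes over low cells, Ccl2 reversed to -0.19 in CEP without doublets, Nr4a2 to -0.26 in Vehicle by means and Pf4 to -0.37 in CEP without C1q. Without the deep cells some named genes fell under 100 UMIs and were not recomputed in that count: among these Nr4a2 in Vehicle went from 0.91 to -0.91 and Ccl24 from 1.38 to -0.02.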

Other observations

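Several gene groups outside the comparisons above were near the level of the low cells, while eicosanoid synthesis genes were lower. MHC class I and peptide loading genes had medians of -0.03 in CEP and -0.09 in Vehicle over 16 genes, 3 above and 8 below 1 in both libraries. Of all genes compared, 25.9% were above and 46.4% below 1 in both. The 16 microbial and lectin receptors had a median of -0.05 in each library, and the 14 iron and antioxidant genes 0.03 and 0.05. BCL2 family and death genes had medians of 0.15 and 0.17, with 6 of 10 above 1 in both libraries. Mcl1, a survival gene that neutrophils depend on, was at 3348 CPM in CEP and 3930 CPM in Vehicle against 3102 and 3677 CPM in low cells. The 5 eicosanoid synthesis genes had medians of -0.37 in CEP and -0.32 in Vehicle, with 1 above and 3 below 1 in both. Among those below was Alox5ap, needed for leukotriene synthesis, at 1616 CPM in CEP and 1889 CPM in Vehicle against 2121 and 2683 CPM.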
